A study of Rattus norvegicus with 8 samples.

Results

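Cadherins and protocadherins are membrane proteins built from repeats of the calcium-binding cadherin domain. The members described here are the array probes whose accession maps, in the RefSeq table of the rat assembly GRCr8, to a symbol that starts with Cdh, Pcdh, Cdhr or Celsr, without unnamed loci. They were 63 of the 30367 probes, for 54 genes, and 49 of these genes were measured well enough to be tested among 22459 genes and accessions. The tested genes were 3 classical type I cadherins, 9 classical type II cadherins, 3 other cadherins, 6 delta protocadherins, 2 other non-clustered protocadherins, 11 clustered beta and 12 clustered gamma protocadherins, 2 cadherin-related genes (Cdhr1 and Cdhr5) and Celsr3. No gene of the clustered alpha group matched. The genes Cdh1, Cdh16, Cdh19, Cdh26 and Pcdhga8 were well above background on 0 of 8 arrays and were not tested.

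The samples were primary neurons grown from Sprague Dawley rat cortex and hippocampus at embryonic day 18 and kept for 7 days in culture before treatment. They were exposed to ADDL, soluble oligomers of amyloid-beta, or to CAT-SKL, a catalase with a peroxisome-targeting signal that serves as an antioxidant, to ask how the antioxidant alters the response to the oligomers. The treatments were 1 µM CAT-SKL alone for 24 h, CAT-SKL for 24 h and then ADDL for another 24 h at the same dose (CAT+ADDL), the same agents in the opposite order (ADDL+CAT), and 1 µM ADDL alone for 24 h, with the order in a combined name read as the order of treatment. Each had 2 arrays, which the labels call biological replicates, and on every array RNA of treated neurons carried Cy5 and RNA of neurons given vehicle carried Cy3. Values are therefore log2 ratios of treated over vehicle, or differences between such ratios. Whether vehicle RNA came from 1 pool is not given in the labels, and no dyes were swapped, so a dye effect of a probe cannot be told apart from an effect shared by all treatments. The sequential treatments lasted longer than the single ones and lay in another row of the slide, so sequence, duration and row cannot be told apart.

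Classical cadherins join cells by binding the same or a similar cadherin on the neighbouring cell, and their cytoplasmic tails bind catenins, which link them to actin. In the brain, cadherins and delta protocadherins sort neurons into layers and nuclei and help to build and adjust synapses. The clustered protocadherins lie in tandem arrays of alternative promoters, and each neuron uses a different small set of them, which gives its processes an identity of their own for self-avoidance. Celsr proteins are large cadherins with a receptor-like membrane region that act in planar cell polarity and axon guidance.

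Detection was even: the treated channel (Cy5) was well above background for 73.3% to 81% of probes and the vehicle channel (Cy3) for 71.5% to 77.4%. The number of arrays limits the precision. On duplicate spots, the difference between the CAT+ADDL arrays was no larger than spot noise gives (SD of the difference over that from spot noise 1.01, against 1.32 to 2.28 for the 27 other pairs of arrays), so they were averaged and counted as 1 sample. Of 10 neuron markers 9 were above background in Cy5 on all arrays, and Rbfox3, which encodes the nuclear antigen NeuN, was not tested. Glial and progenitor markers were measured as well: 11 of 12 astrocyte markers, 9 of 10 oligodendrocyte lineage markers and 7 of 9 markers of proliferating progenitors were above background in Cy5 on all arrays, while Sox9 of the astrocyte list and Mki67 and Top2a of the progenitor list were not tested. RNA of genes that mark other cell types than the labelled neurons was thus present. Of 8 microglia markers 6 reached that level, as did 4 of 6 fibroblast and mural markers and 1 of 6 endothelial markers.

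As a family the genes stayed close to vehicle. The median log2 ratio over the 49 genes was 0.01 after CAT-SKL, -0.01 after CAT+ADDL, 0.00 after ADDL+CAT and -0.02 after ADDL, and over all genes tested it was 0.00 in each. In limma, 0 of 49 passed a Benjamini-Hochberg adjusted p of 0.05 after CAT-SKL, where 2.62% of all genes passed, and 0 passed after ADDL+CAT, where 0.454% of all genes passed. After CAT+ADDL and after ADDL 0 members passed, as did 0% of all genes. At an unadjusted p below 0.05, there were 11 members (22.4%) after CAT-SKL beside 21.2% of all genes, 4 (8.16%) after CAT+ADDL beside 11.3%, 6 (12.2%) after ADDL+CAT beside 17.6%, and 10 (20.4%) after ADDL beside 19%. The members' shares thus lay near or below those of all genes. For comparisons with n = 2 the 95% interval of a member's ratio reached 0.12 to 0.95 to either side, with a median of 0.14, and for the single CAT+ADDL sample it reached 0.16 to 1.35, with a median of 0.20.

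The spread over the 8 arrays was also like that of other genes, but it differed by subfamily. The median SD over arrays was 0.0892 for the members and 0.093 for all genes. Delta protocadherins varied most among the larger groups (median SD 0.193), type II cadherins followed (0.119), and clustered beta (0.0892) and clustered gamma protocadherins (0.0694) varied least. Brightness differed as well: the median normalised log2 intensity in Cy5 was 8.08 to 11.46 for delta genes. It was 5.91 to 7.84 for gamma genes apart from Pcdhga7, and several gamma genes were not well above background on every array. The part of brightness in this order was not tested. Of 392 member values, 8 lay beyond 0.5 in either direction (2.04%, against 1.24% over all genes), and 5 of these 8 belonged to Cdhr1 and 3 to Pcdh9. Ratios above 0 on every array were seen for 4 members (Cdh22, Cdhr1, Pcdh18 and Pcdh20), beside 7.47% of all genes, and ratios below 0 on every array for 2 (Cdh20 and Celsr3), beside 7.99% of all genes. Only Cdhr1 went past a 2-fold difference on any array, beside 0.276% of all genes.

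**Figure D1:**
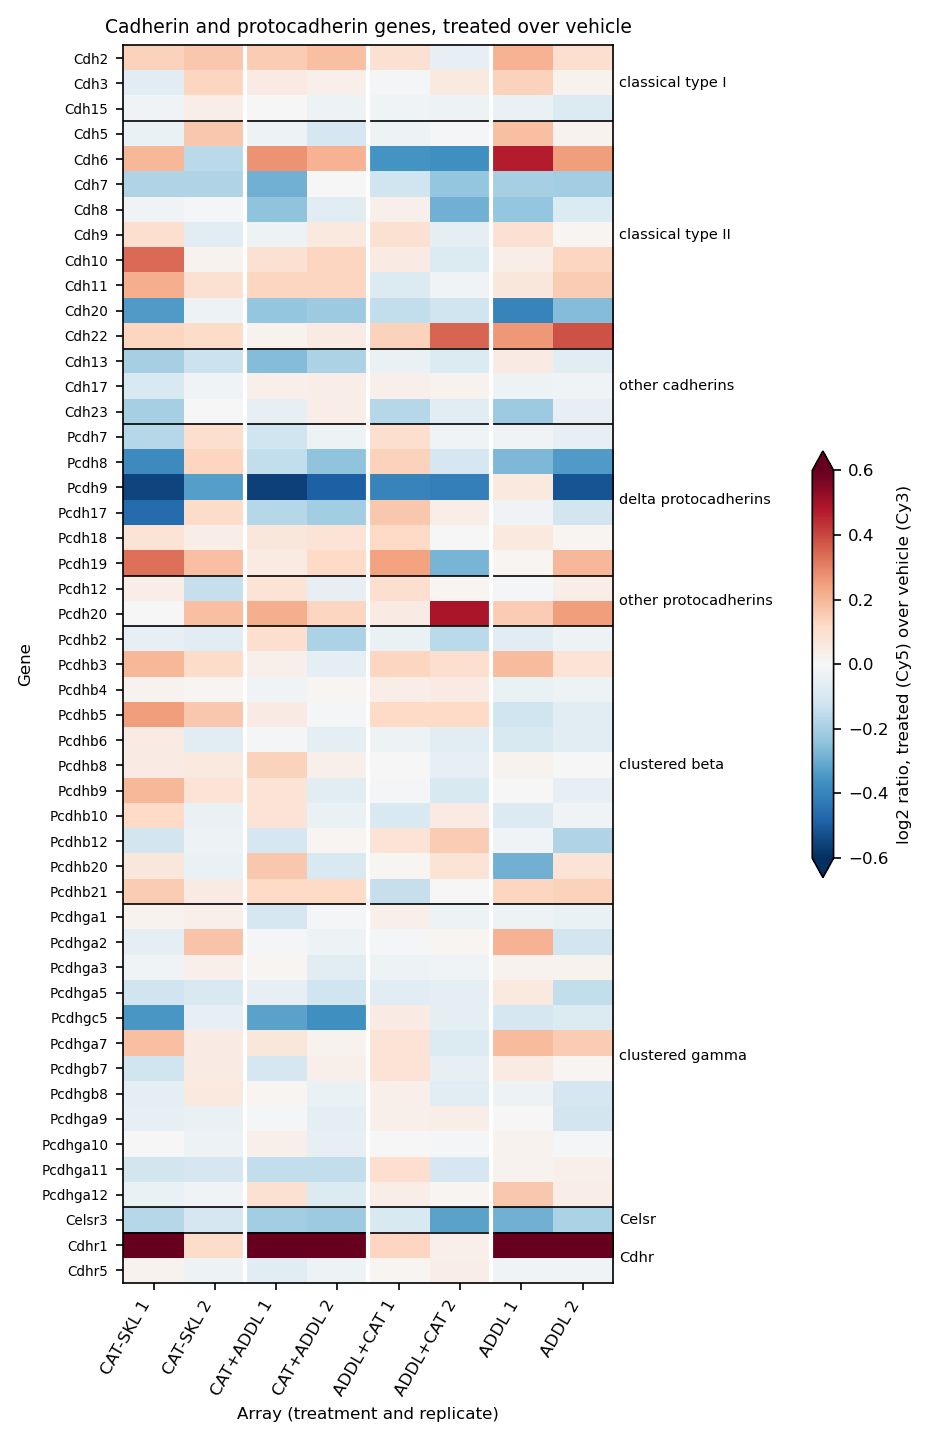
Log2 ratio of treated (Cy5) over vehicle (Cy3) for the 49 tested genes (rows, grouped by subfamily) on the 8 arrays (columns, grouped by treatment); red is above and blue below vehicle, and the colour scale ends at 0.6 in either direction. The clustered beta and gamma genes stay between -0.37 and 0.25, with Pcdhgc5 the lowest of them on CAT-SKL replicate 1 and both CAT+ADDL arrays, while Cdhr1 lies past the end of the scale on 5 arrays and Pcdh9 is blue on 7 of 8.

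Cdhr1 had the largest ratio of the family by far. It encodes photoreceptor cadherin, a cadherin-related protein known from the outer segments of retinal photoreceptors and from the projection neurons of the olfactory bulb. Its log2 ratios were 2.43 and 0.11 on the CAT-SKL arrays, 1.82 and 1.82 on the CAT+ADDL arrays, 0.13 and 0.03 on the ADDL+CAT arrays, and 2.28 and 2.17 on the ADDL arrays. Both ADDL+CAT arrays and the array of CAT-SKL replicate 2 were near vehicle, and the other 5 were high, so the CAT-SKL replicates disagreed. On those 5 arrays Cdhr1 had the highest ratio of all 22459 genes, and the next gene reached 1.27 to 1.92. On CAT-SKL replicate 2 it ranked 3657 from the top, and on the ADDL+CAT arrays 3338 and 9218.

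The group means of Cdhr1 were 1.27 ± 0.41 after CAT-SKL (SE, n = 2; limma adjusted p = 0.131), 1.82 ± 0.58 after CAT+ADDL (n = 1; adjusted p = 0.284), 0.08 ± 0.41 after ADDL+CAT (n = 2; adjusted p = 0.951) and 2.22 ± 0.41 after ADDL (n = 2; adjusted p = 0.0723), a 4.66-fold ratio after ADDL. None passed. The SE pools the spread of all groups, that of the CAT-SKL arrays included. Other settings weakened the ADDL result: its limma adjusted p was 0.296 with plain background subtraction (2.26) and 0.253 with the deposited ratios (2.24). With median centring of each array and no loess, Cdhr1 passed after CAT-SKL (1.42, adjusted p = 0.001), CAT+ADDL (2.03, adjusted p = 0.00371) and ADDL (2.19, adjusted p = 6.63e-05). Without CAT-SKL replicate 2 it also passed in limma after CAT-SKL (2.43, adjusted p = 0.000282), while without CAT-SKL replicate 1 the CAT-SKL ratio was 0.11. Without either CAT-SKL array, which changes the pooled spread, it passed after CAT+ADDL (adjusted p = 0.00224) and ADDL (adjusted p = 4.59e-05).

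The channels show where the variation lay. The normalised log2 intensity of the Cdhr1 probe was 13.49 and 11.05 in the CAT-SKL treated channel, 12.77 and 12.83 in CAT+ADDL, 11.14 and 10.99 in ADDL+CAT, and 13.28 and 13.08 in ADDL. In the vehicle channel it lay between 10.91 and 11.06 on all 8 arrays. The treated channel thus ranged over 2.50 and the vehicle channel over 0.14. Cdhr1 is represented by a single probe, which was well above background in both channels on every array and was not saturated.

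**Figure D2:**
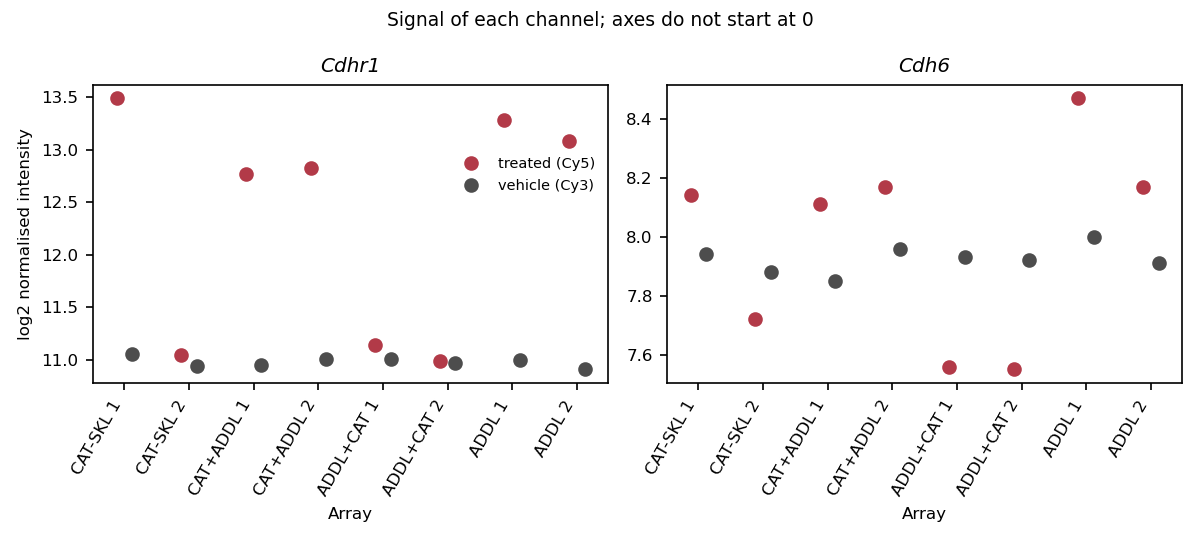
Normalised log2 intensity of the treated channel (Cy5, red) and the vehicle channel (Cy3, grey) for the Cdhr1 probe (left) and the Cdh6 probe (right) on each array; the axes do not start at 0. The vehicle points keep within 0.14 for Cdhr1 and 0.15 for Cdh6, while the treated points range over 2.50 and 0.92.

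Markers of glia and progenitors also varied over the arrays, as the plot of Cdhr1 beside the marker lists shows. The median log2 ratio of the 11 measured astrocyte markers was 0.75 and 0.13 on the CAT-SKL arrays, 0.58 and 0.52 on the CAT+ADDL arrays, 0.24 and -0.02 on the ADDL+CAT arrays, and 0.32 and 0.78 on the ADDL arrays. The 10 oligodendrocyte lineage markers had medians of 0.68 and 0.19, 0.63 and 0.67, 0.11 and 0.00, and 0.28 and 0.32 in the same order, and the 7 measured markers of proliferating progenitors had 0.78 and 0.20, 0.53 and 0.65, 0.37 and 0.07, and 0.44 and 0.72. The lowest list medians were on ADDL+CAT replicate 2, where Cdhr1 was lowest too, but the order differs between them elsewhere, since the ADDL array with the higher Cdhr1 had the lower astrocyte median. Of the marker genes, Sox2, a progenitor transcription factor, had 1.01 and 0.09 on the CAT-SKL arrays, 0.80 and 0.81 on the CAT+ADDL arrays, 0.06 and -0.37 on the ADDL+CAT arrays, and 0.55 and 0.72 on the ADDL arrays. The other measured progenitor markers differed from Sox2. On the ADDL+CAT arrays Rrm2 had 0.90 and 0.34, Cdk1 0.45 and 0.07, and Birc5 0.41 and 0.25. Nes had 0.37 and -0.05 there, Vim 0.31 and 0.13, and Pax6 0.04 and -0.04. After CAT-SKL, Pdgfra, Olig2 and Sox10 of the oligodendrocyte lineage list, Birc5 of the progenitor list and Gad1 of the neuron list rose (log2 0.37 to 1.19, limma adjusted p 0.0393 to 0.043), and no marker passed after the other treatments. Neuron markers had medians between -0.09 and 0.09, microglia between -0.12 and 0.25, endothelium between -0.03 and 0.06, and fibroblast and mural markers between -0.07 and 0.08. List medians hide opposite moves: of the neuron markers, Gad1 lay between 0.29 and 0.81 and Dcx between -0.72 and 0.05. In the oligodendrocyte lineage list, Mbp had -1.21 and -1.02 on the ADDL+CAT arrays, while Pdgfra had 1.00 and 0.42. These are bulk cultures, in which fewer cells of a type and less RNA per cell cannot be told apart, and the part of these markers in the Cdhr1 values was not tested.

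**Figure D3:**
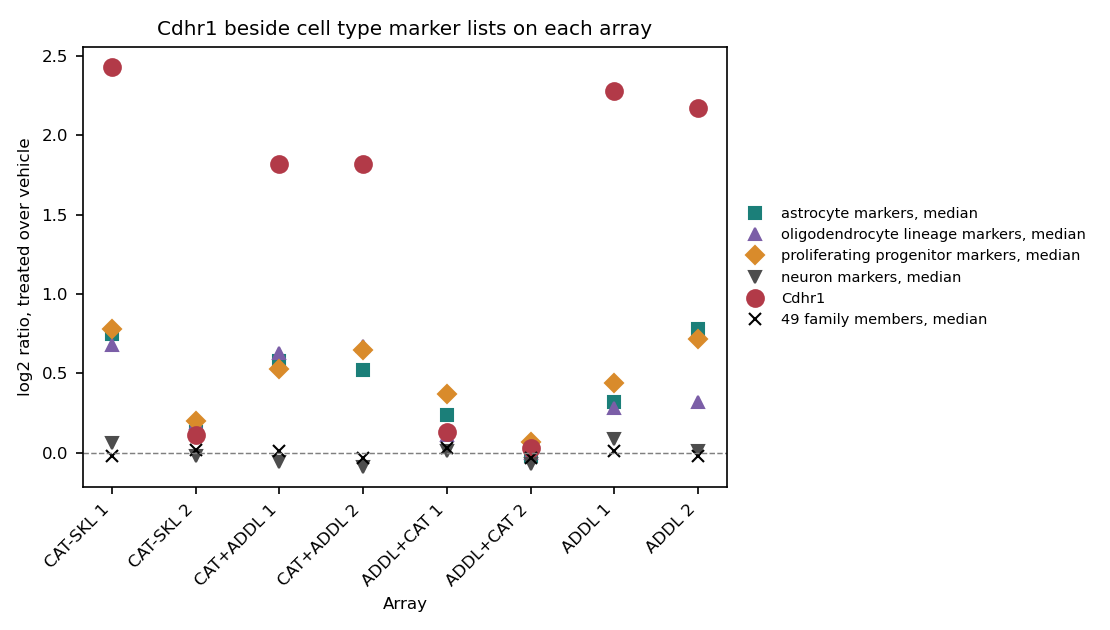
Log2 ratio of treated over vehicle on each array for Cdhr1 (red circles), for the medians of 4 cell type marker lists and for the median of the 49 family members (crosses). The astrocyte, oligodendrocyte lineage and progenitor medians lie between -0.02 and 0.37 on the ADDL+CAT arrays and between 0.28 and 0.78 on the ADDL arrays, where Cdhr1 is at 0.13 and 0.03 and at 2.28 and 2.17, while the family and neuron medians stay between -0.09 and 0.09 on all 8.

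The RefSeq promoter window of Cdhr1 (GRCr8, chr16:12883530-12883829, minus strand) is shown because this gene carries the largest ratios of the family. The capitals mark CAGCTG, a form of the E-box that basic helix-loop-helix factors can bind. It begins just downstream of the gene's start, and the same letters (which read alike on both strands) are in 15.1% of all promoter windows of this length.
Cdhr1: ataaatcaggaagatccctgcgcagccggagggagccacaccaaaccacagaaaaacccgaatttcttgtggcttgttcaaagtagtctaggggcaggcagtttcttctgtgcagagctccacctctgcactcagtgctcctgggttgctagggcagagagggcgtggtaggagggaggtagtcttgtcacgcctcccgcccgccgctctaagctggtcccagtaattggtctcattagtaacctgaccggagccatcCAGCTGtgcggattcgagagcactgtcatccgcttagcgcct

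Cdhr5, a mucin-like cadherin of intestinal microvilli, was the other cadherin-related gene. It was not well above background on all arrays, and its ratios lay between -0.07 and 0.04.

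Among the classical type II cadherins, Cdh6 lay on opposite sides of vehicle after ADDL+CAT and after ADDL. It encodes K-cadherin, which marks boundaries and subsets of neurons in the developing brain. Its log2 ratios were 0.20 and -0.16 on the CAT-SKL arrays, 0.27 and 0.21 on the CAT+ADDL arrays, -0.36 and -0.37 on the ADDL+CAT arrays, and 0.47 and 0.25 on the ADDL arrays. The ADDL+CAT arrays were the lowest of all, but the share of all genes with such an order was not counted. The group means were -0.37 ± 0.09 after ADDL+CAT (SE, n = 2; limma adjusted p = 0.102) and 0.36 ± 0.09 after ADDL (n = 2; adjusted p = 0.0994). The treated channel ranged from 7.55 to 8.47 and the vehicle channel from 7.85 to 8.00.

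Cdh22 and Cdh20, a pair of type II cadherins expressed in brain nuclei and cortical areas, had ratios of opposite sign. Cdh22 had 0.13 and 0.11 on the CAT-SKL arrays, 0.02 and 0.05 on the CAT+ADDL arrays, 0.14 and 0.35 on the ADDL+CAT arrays, and 0.26 and 0.38 on the ADDL arrays, with a mean of 0.32 ± 0.07 after ADDL (SE, n = 2; limma adjusted p = 0.0769). It was above vehicle on all 8 arrays. With median centring its means were 0.24 after CAT-SKL, 0.20 after CAT+ADDL, 0.30 after ADDL+CAT and 0.28 after ADDL, so the low CAT+ADDL value depends on the normalisation. Cdh20 had -0.34 and -0.03 on the CAT-SKL arrays, -0.23 and -0.22 on the CAT+ADDL arrays, -0.15 and -0.12 on the ADDL+CAT arrays, and -0.40 and -0.26 on the ADDL arrays, with a mean of -0.33 ± 0.08 after ADDL (n = 2; adjusted p = 0.0938). It was below vehicle on all 8. Cdh7 was below vehicle on 7 arrays, between -0.29 and -0.12, and at 0.00 on CAT+ADDL replicate 2, with its smallest adjusted p after ADDL (-0.21 ± 0.05, adjusted p = 0.109). Cdh10 had 0.34 on CAT-SKL replicate 1 and -0.08 to 0.13 on the other arrays. The other type II members (Cdh5, the endothelial cadherin, Cdh8, Cdh9 and Cdh11) stayed between -0.29 and 0.22, and a fainter probe of Cdh11 ranged from -0.24 to 0.35.

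Cdh2 encodes N-cadherin, the main classical cadherin of neurons and their synapses. It had 0.14 and 0.16 on the CAT-SKL arrays, 0.15 and 0.18 on the CAT+ADDL arrays, 0.09 and -0.05 on the ADDL+CAT arrays, and 0.21 and 0.10 on the ADDL arrays. Only ADDL+CAT replicate 2 was below 0, and no comparison passed (0.15 ± 0.06 after ADDL, SE, n = 2, limma adjusted p = 0.221). The other type I genes, Cdh3 (P-cadherin) and Cdh15 (the muscle cadherin), ranged from -0.08 to 0.14. Cdh13 encodes T-cadherin, which is anchored by a lipid and lacks the catenin-binding tail. Its brighter probe gave -0.16 ± 0.06 after CAT-SKL (adjusted p = 0.148) and -0.22 ± 0.08 after CAT+ADDL (n = 1; adjusted p = 0.342), whereas a fainter probe lay between -0.07 and 0.17, so its probes disagree. Cdh17, the intestinal liver-intestine cadherin, and Cdh23, a component of the tip links of hair cells, stayed between -0.22 and 0.04.

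Delta protocadherins have homophilic binding and long cytoplasmic tails that reach actin regulators. Pcdh9 had the lowest ratios of the family: -0.55 and -0.33 on the CAT-SKL arrays, -0.56 and -0.49 on the CAT+ADDL arrays, -0.40 and -0.41 on the ADDL+CAT arrays, and 0.06 and -0.52 on the ADDL arrays. It was below vehicle on 7 of 8 arrays, the exception being ADDL replicate 1, so the ADDL replicates disagreed. The means were -0.44 ± 0.12 after CAT-SKL (SE, n = 2; limma adjusted p = 0.0887), -0.53 ± 0.17 after CAT+ADDL (n = 1; adjusted p = 0.283), -0.41 ± 0.12 after ADDL+CAT (n = 2; adjusted p = 0.144) and -0.23 ± 0.12 after ADDL (n = 2; adjusted p = 0.358).

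Pcdh8 is also known as arcadlin, which is induced by synaptic activity and removes N-cadherin from synapses in rat hippocampal neurons. It had -0.38 and 0.13 on the CAT-SKL arrays, -0.15 and -0.24 on the CAT+ADDL arrays, 0.14 and -0.10 on the ADDL+CAT arrays, and -0.27 and -0.34 on the ADDL arrays, where its mean was -0.31 ± 0.11 (SE, n = 2; limma adjusted p = 0.198). The replicates of CAT-SKL and of ADDL+CAT fell on both sides of vehicle, and only the ADDL and CAT+ADDL arrays kept 1 sign. Pcdh17, which acts in the assembly of presynaptic terminals, also split the CAT-SKL replicates, with -0.46 and 0.11, and its other probe gave -0.50 and 0.02 there. That probe lay lower than the first on the ADDL arrays (-0.40 and -0.19, beside -0.02 and -0.11). The same held on the CAT+ADDL arrays (-0.32 and -0.44, beside -0.17 and -0.21) and ADDL+CAT arrays (0.06 and -0.22, beside 0.16 and 0.04). Pcdh19, an X-linked gene mutated in a female-limited epilepsy in humans, had 0.33 and 0.18 on the CAT-SKL arrays, 0.05 and 0.12 on the CAT+ADDL arrays, 0.24 and -0.28 on the ADDL+CAT arrays, and 0.01 and 0.20 on the ADDL arrays. Pcdh7 and Pcdh18 stayed between -0.17 and 0.12, but another probe of Pcdh7 gave -0.34 on CAT-SKL replicate 1 and -0.30 on ADDL replicate 2. Of the other protocadherins, Pcdh20 reached 0.49 on ADDL+CAT replicate 2 and lay between 0.00 and 0.25 on the other arrays, and Pcdh12, an endothelial protocadherin, lay between -0.14 and 0.10.

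**Figure D4:**
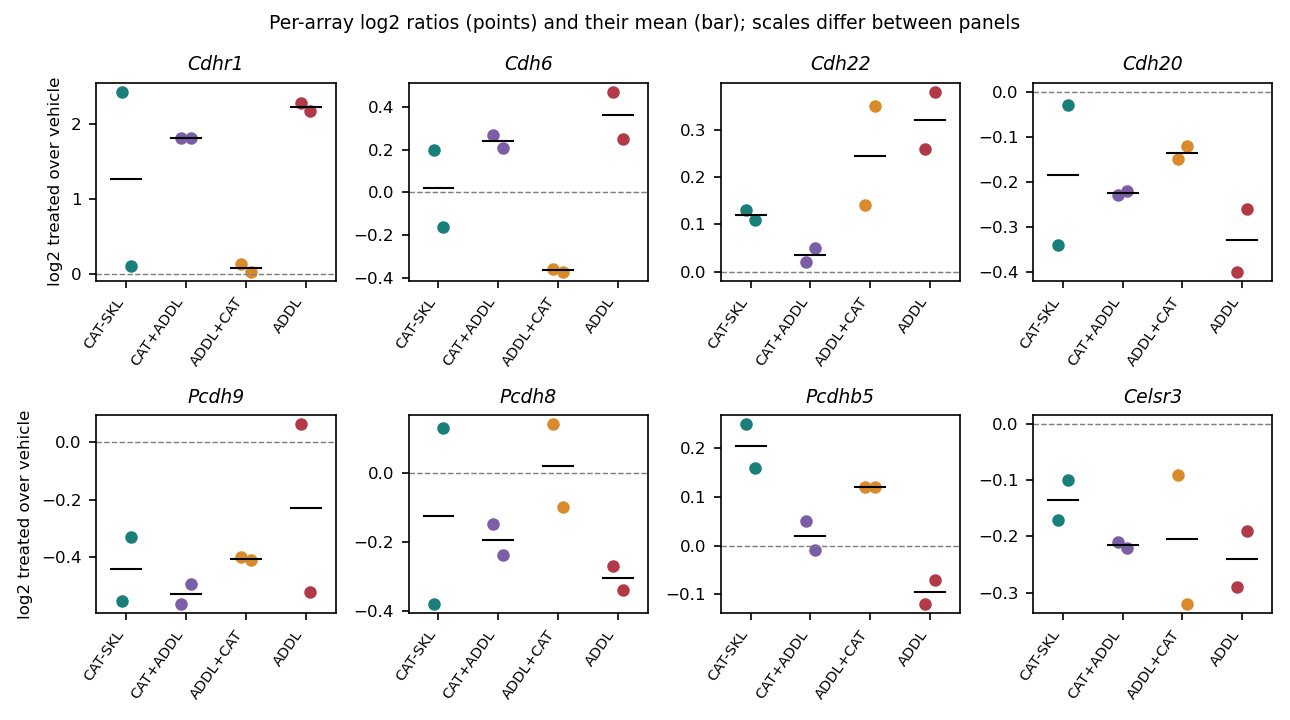
Log2 ratio of treated over vehicle for 8 members (panels), by treatment; points are arrays, bars are their means, the dashed line is vehicle, and the vertical scale differs between panels. Cdh6 is below vehicle on both ADDL+CAT arrays and above it on both ADDL arrays, and Cdhr1 splits the CAT-SKL arrays at 2.43 and 0.11.

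The 11 clustered beta protocadherins, whose ectodomains mark single neurons, stayed between -0.29 and 0.25 on every array. Their median was 0.04 after CAT-SKL, 0.01 after CAT+ADDL, -0.02 after ADDL+CAT and -0.05 after ADDL, and 0 of 11 passed in any comparison. Pcdhb5 had the smallest p of any member after CAT-SKL: 0.25 and 0.16 on the CAT-SKL arrays, 0.05 and -0.01 on the CAT+ADDL arrays, 0.12 and 0.12 on the ADDL+CAT arrays, and -0.12 and -0.07 on the ADDL arrays. Its ADDL arrays were the lowest and its CAT-SKL arrays the highest, but the share of all genes with such an order was not counted. The mean of Pcdhb5 after CAT-SKL was 0.21 ± 0.05 (SE, n = 2, limma adjusted p = 0.0806). Over the 4 treatments, Pcdhb21 and Pcdhb3 had the highest means of the beta genes, with arrays between -0.14 and 0.20, and Pcdhb2 and Pcdhb6 the lowest, with arrays between -0.19 and 0.10. Pcdhb2 and Pcdhb6 were not well above background on every array.

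These genes share a promoter element, which is printed for Pcdhb5, for the beta pair with the highest means and for the pair with the lowest. Most clustered promoters are known, from mouse and human work, to carry a conserved element with the core CGCT that CTCF binds. The most frequent run of 10 bases in the 33 beta and gamma promoter windows (RefSeq, GRCr8, promoter strand) was GGTGGCGCTG, which contains CGCT. Searched on both strands, it was in 15 of 19 beta windows, in 0 of 14 gamma windows, and in 66 of 27457 windows of all genes (0.24%). Since it was picked for its frequency here, its share in the beta genes is a description. The core alone is in 62.4% of all windows. All 11 tested beta genes have the run, and none of the 18 tested members with a window outside these clusters has it. The printed windows have the run in capitals and lie on the plus strand at chr18:29302394-29302443 for Pcdhb5, chr18:29285594-29285643 for Pcdhb3, chr18:29492139-29492188 for Pcdhb21, chr18:29279913-29279962 for Pcdhb2 and chr18:29320142-29320191 for Pcdhb6. The run starts 52, 61, 60, 71 and 229 bases before the annotated gene start in that order.
Pcdhb5: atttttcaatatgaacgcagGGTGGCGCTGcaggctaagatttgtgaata
Pcdhb3: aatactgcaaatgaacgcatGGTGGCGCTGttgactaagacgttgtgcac
Pcdhb21: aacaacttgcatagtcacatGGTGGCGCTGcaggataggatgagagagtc
Pcdhb2: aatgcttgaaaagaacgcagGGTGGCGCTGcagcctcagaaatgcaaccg
Pcdhb6: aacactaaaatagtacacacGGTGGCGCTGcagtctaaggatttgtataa
Since all 11 tested beta genes carry the run, its presence cannot be set against their ratios. The array values of the printed genes with the highest and the lowest means overlap.

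The 12 clustered gamma protocadherins had arrays between -0.37 and 0.21 and medians of -0.02 after CAT-SKL, -0.03 after CAT+ADDL, 0.00 after ADDL+CAT and 0.01 after ADDL. Variable exons of this cluster are spliced to shared constant exons. The probe sequences were not used here, so whether a probe also binds a neighbouring member was not tested. Pcdhgc5, one of the C-type genes, which are used more uniformly than the others, departed most: -0.35 and -0.05 on the CAT-SKL arrays, -0.32 and -0.37 on the CAT+ADDL arrays, 0.05 and -0.06 on the ADDL+CAT arrays, and -0.10 and -0.08 on the ADDL arrays. It was low on both CAT+ADDL arrays and on CAT-SKL replicate 1, with a mean of -0.35 ± 0.11 after CAT+ADDL (SE, n = 1; limma adjusted p = 0.27). At the other end, Pcdhga7 lay between -0.08 and 0.19 and Pcdhga12 between -0.08 and 0.16, while Pcdhga5, dim on some arrays, lay between -0.15 and 0.06. The Pcdhga7 probe was far brighter than those of the other gamma genes (median log2 intensity 13.11 in Cy5, beside 7.84 for Pcdhgc5, the next). Another Pcdhga7 probe was well above background on only 1 array, so the probes disagree on its level. Whether the bright probe reads Pcdhga7 alone was not tested.

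Celsr3, which guides major axon tracts of the forebrain in mice, was below vehicle on all 8 arrays: -0.17 and -0.10 on the CAT-SKL arrays, -0.21 and -0.22 on the CAT+ADDL arrays, -0.09 and -0.32 on the ADDL+CAT arrays, and -0.29 and -0.19 on the ADDL arrays. The treatments overlapped. Another probe was also below vehicle on every array, between -0.21 and -0.02. The smallest adjusted p in limma was 0.121, after ADDL (-0.24 ± 0.07, SE, n = 2). Its partners in planar polarity, of which 10 of 11 listed genes were measured, gave 0 calls in any comparison, and the smallest p belonged to Prickle1, a cytoplasmic polarity protein (-0.32 ± 0.06 after ADDL+CAT, adjusted p = 0.0627).

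Genes that work with cadherins were read from lists of partners, whose medians after the 4 treatments lay between -0.01 and 0.04 for catenins and junction partners, -0.06 and 0.00 for other cadherins of the superfamily, -0.05 and 0.00 for planar polarity, -0.03 and 0.04 for cytoplasmic partners of protocadherins, and 0.06 and 0.11 for control of clustered promoters, beside 0.00 for all genes. Of the catenins and junction partners, 8 of 14 were measured and 0 passed. Ctnnb1 encodes beta-catenin, which binds classical cadherins and carries Wnt signals. It had 0.51 and 0.09 on the CAT-SKL arrays, 0.24 and 0.23 on the CAT+ADDL arrays, -0.33 and -0.52 on the ADDL+CAT arrays, and -0.13 and 0.02 on the ADDL arrays, with a mean of -0.43 ± 0.10 after ADDL+CAT (SE, n = 2; limma adjusted p = 0.0922). Both ADDL+CAT arrays were below all others, an order whose share among all genes was not counted. Of the more distant cadherin superfamily, 9 of 16 were measured and 0 passed, led by Fat1, a giant cadherin (-0.34 ± 0.07 after CAT-SKL, adjusted p = 0.0531). Of the cytoplasmic partners of protocadherins, 13 of 14 were measured and 0 passed, led by Abi2, of the WAVE actin complex (-0.24 ± 0.06 after CAT-SKL, adjusted p = 0.0594). Of genes that control clustered protocadherin promoters, 7 of 13 were measured and 0 passed, led by the cohesin subunit gene Stag2 (0.26 ± 0.05 after ADDL+CAT, adjusted p = 0.0747).

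Treatments were also compared with ADDL alone, to ask how CAT-SKL given before, after or in place of the oligomers shifts the family. In limma 0 of 49 members passed in each of these 3 comparisons, as did 0% of all genes, and they share the ADDL arrays. At an unadjusted p below 0.05, there was 1 member (2.04%) for CAT+ADDL against ADDL beside 3.9% of all genes, 5 (10.2%) for ADDL+CAT against ADDL beside 8.39%, and 2 (4.08%) for CAT-SKL against ADDL beside 8.7%. The largest difference was that of Cdhr1 for ADDL+CAT against ADDL, -2.15 ± 0.58 (95% interval -3.49 to -0.80, adjusted p = 0.573), the lowest difference of all 22459 genes. It passed when arrays were median-centred (-2.05, adjusted p = 0.0231) and without either CAT-SKL array (adjusted p = 0.000691). With plain background subtraction the limma adjusted p of that difference was 0.772 (-2.18), and with the deposited ratios 0.737 (-2.19). For CAT+ADDL against ADDL the Cdhr1 difference was -0.40 ± 0.72 (interval -2.05 to 1.25, and -0.17 with median centring). For CAT-SKL against ADDL it was -0.95 ± 0.58 (interval -2.30 to 0.40). The CAT-SKL replicates disagreed, and without CAT-SKL replicate 1 the difference was -2.11. Without CAT-SKL replicate 2 the CAT-SKL ratio was 2.43, above the mean of 2.22 after ADDL, so the sign depends on the replicate kept.

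Cdh6 had a smaller but tighter difference for ADDL+CAT against ADDL: -0.73 ± 0.13 (95% interval -1.02 to -0.43, unadjusted p = 0.000432, limma adjusted p = 0.573). Its p was the 4th smallest of all genes tested, and with median centring it passed (-0.70, adjusted p = 0.0359). With plain background subtraction the limma adjusted p was 0.772 (-0.97), and with the deposited ratios 0.737 (-0.89). The same gene gave -0.34 ± 0.13 for CAT-SKL against ADDL (interval -0.63 to -0.05, adjusted p = 0.558), but the CAT-SKL replicates lay on both sides of vehicle, and the difference was -0.52 without CAT-SKL replicate 1 and -0.16 without CAT-SKL replicate 2. It gave -0.13 ± 0.16 for CAT+ADDL against ADDL (interval -0.48 to 0.23). Pcdhb5 was 0.30 ± 0.08 higher in CAT-SKL than in ADDL (interval 0.13 to 0.48, adjusted p = 0.541) and 0.21 ± 0.08 higher in ADDL+CAT than in ADDL (interval 0.04 to 0.39, adjusted p = 0.573), and plain background subtraction gave 0.47 and 0.34 in that order. Cdh22 was lower in CAT+ADDL than in ADDL by a log2 difference of -0.28 ± 0.12 (interval -0.55 to -0.02, adjusted p = 1), and with median centring the difference was -0.08. The median half-width of the members' 95% intervals was 0.24 for CAT+ADDL against ADDL and 0.20 for the other comparisons, so smaller differences were not resolved with these arrays.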

How the data were processed

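RNA was hybridised to 8 Agilent arrays of 1 slide, with a dye for each sample and 58717 non-control spots for 30367 probes. The deposited scanner files hold spot intensity per channel (median pixel brightness, with the local background) and a log10 ratio of red over green, which Feature Extraction 11.5 made with background subtraction and dye normalisation, per the submitters' processing notes and the file headers. The series table deposited beside them repeats these log10 ratios (largest difference 0.005). Flags for background, outliers and saturation, which are 0 or 1 per the file headers, are in the same files, and 0 probes were saturated.

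Normexp with an offset of 50 (limma 3.58.1, R 4.3.3) corrected the intensities for background, and loess with control spots at weight 0 normalised each array. On each array 902 to 1262 outlier spots were dropped before duplicate spots were averaged. A probe was tested if either of its channels was flagged well above background on 2 or more of 8 arrays. The brightest probe stood for a gene. Accessions were named through RefSeq (GRCr8), where 17998 of 30367 probes had a symbol. Promoter windows (250 bases before to 50 after the gene start) came from RefSeq and matched 40 of the 49 tested members.

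Groups were taken from the labels. Log2 ratios were tested in limma (lmFit and eBayes, two-sided) over all samples, with Benjamini-Hochberg adjustment within each comparison over 22459 genes and accessions. The CAT+ADDL arrays were averaged into 1 sample, since their difference did not carry over between duplicate spots (r = 0.00741 across probes, against 0.271 to 0.678 for the other pairs). This left 7 samples (residual df 3, prior df 5.05), and the lone sample was assumed to vary like the other groups. Tests against vehicle set the ratio against 0. If the vehicle RNA was 1 pool, these tests leave out the spread of the vehicle cultures. Nothing in the labels ties replicates to separate preparations beyond the word biological, so the spread behind the p-values may be technical. Standard errors pool the spread over groups.

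The members and the lists were chosen with earlier results of these data known. Named genes were, in each comparison, members that passed or, below 4, those with the smallest p up to 4; in each subfamily the 2 highest and 2 lowest means; and in each partner list those that passed or the smallest p. Further members were described after their values were seen. The functions were tested on simulated data. Alternatives were the background correction, centring, the deposited ratios, the filter on dim probes, the choice of probe, 8 separate samples, a replicate block and leaving out each array. A further partner list is not reported here.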

Additional observations from a re-analysis of the deposited data

How the results depend on the processing

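No member passed in the reported fit, and some alternatives gave calls. With median centring 1 member passed after CAT-SKL, CAT+ADDL and ADDL (Cdhr1 in each) and 2 for ADDL+CAT against ADDL (Cdh6 and Cdhr1). The setting of 8 separate samples counts the CAT+ADDL arrays as 2, although they differ by about spot noise, and this changes the pooled spread. It called 1820, 2322, 886 and 975 of 22459 genes after CAT-SKL, CAT+ADDL, ADDL+CAT and ADDL in that order. Of the 49 members, 2 passed there after CAT-SKL (Pcdh9, Pcdhb5), 4 after CAT+ADDL (Cdh13, Cdhr1, Pcdh9, Pcdhgc5), 1 after ADDL+CAT (Cdh6) and 4 after ADDL (Cdh20, Cdh22, Cdh6, Cdhr1). With an array left out, the count lay between 0 and 1 after CAT-SKL, CAT+ADDL and ADDL, and for ADDL+CAT and CAT-SKL against ADDL, always through Cdhr1 and always with a CAT-SKL array left out; it was 0 in the other comparisons. The member median was -0.03 after CAT-SKL with median centring or the deposited ratios, -0.06 and -0.05 after CAT+ADDL and -0.04 and -0.07 after ADDL+CAT in that order, and -0.08 after ADDL with the deposited ratios. With an array left out it lay between -0.02 and 0.02 (CAT-SKL), -0.03 and 0.01 (CAT+ADDL), -0.03 and 0.03 (ADDL+CAT) and -0.02 and 0.01 (ADDL). With median centring Cdh13 was at 0 after CAT+ADDL in place of -0.22, and at 0.04 against ADDL in place of -0.21; the cause was not tested. Of all genes, 588 passed after CAT-SKL (188 higher, 400 lower), against 1819 with median centring (1417 higher, 402 lower), 1820 with 8 samples (774 higher, 1046 lower), 275 with no filter on dim probes, 6 with the replicate block, and 0 with plain background subtraction or the deposited ratios. After ADDL+CAT 102 passed (54 higher, 48 lower), against 374 with median centring, 886 with 8 samples, and 0 with no background correction, plain subtraction, the deposited ratios, no filter or the block. After CAT+ADDL 0 passed, against 325 and 2322, and after ADDL 0, against 430 and 975, with median centring and 8 samples in that order. Median centring gave 30 for ADDL+CAT and 1 for CAT-SKL against ADDL. With an array left out the counts were 2 to 588 after CAT-SKL (2 without CAT-SKL replicate 1, 387 without CAT-SKL replicate 2, 53 without either ADDL array, 226 without either ADDL+CAT array), 0 to 5 after CAT+ADDL, 0 to 102 after ADDL+CAT (102 only without a CAT+ADDL array) and 0 to 329 after ADDL (329 without either CAT-SKL array), and 0 to 3, 0 to 13 and 0 to 8 for CAT+ADDL, ADDL+CAT and CAT-SKL against ADDL. The deviations of samples with the same replicate number from their group means correlated at r between -0.202 and 0.0784 across genes. The CAT+ADDL arrays differ by about spot noise, so pairs with them could not show a shared preparation. Whether the replicate number marks a shared preparation was not tested. With the replicate block 0 members passed in every comparison, and crossing the numbers of ADDL+CAT gave 0 members and 0 genes against ADDL. The number of arrays, the single CAT+ADDL sample and 12 of 49 members dim on some array limit what could be seen.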
